A study of Mus musculus with 2 samples.

Results

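The genes described here are 34 imprinted genes of the mouse, taken as a list of symbols and matched to the 32286 features counted; all 34 symbols were found. They lie at 17 loci on 10 chromosomes, and 27 are protein-coding, while 7 are noncoding RNAs. By textbook knowledge 21 are expressed mainly from the paternal copy, 11 mainly from the maternal copy, and for Grb10 and Gnas the copy depends on the tissue.

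The cells came from the caudal tissue of wild-type C57BL/6J embryos at embryonic day 8.5, with tissue pooled, dissociated and run through a droplet single-cell kit that reads the 5′ ends of transcripts. There is 1 group with 2 libraries, replicate 1 and replicate 2, and no treated, mutant or control group. The comparisons are therefore between cell types within the libraries. The tests take the library as a block, so the p-values measure how much the differences between types vary between these libraries. A shift that all types of a library share does not enter them. Whether each library had its own pool of embryos is not stated in the labels, so the spread that is measured may be technical.

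Imprinted genes carry parent-specific DNA methylation at control regions, set in the germ line, so that in many tissues the copy from one parent is used and the other is silent. Many imprinted genes act on growth: Igf2 and its receptor Igf2r, the cell cycle inhibitor Cdkn1c and the signalling adaptor Grb10 are examples, and placental and mesodermal tissues are known for high levels of several of them. Imprinted genes usually lie in clusters, where a noncoding RNA or an insulator sets the expression of several neighbours. The embryos are of an inbred strain and the counts carry no alleles, so parental origin was not measured and every value is a total over both copies.

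Members of several clusters had similar profiles over the cell types, as described further on, and start windows of 3 of these clusters (Peg3, Igf2 and Meg3) are shown for that reason, with that of Mest, the only listed gene at its locus. RefSeq promoter entries, from 250 bases before to 50 after a start, matched 27 of the 34 genes with 44 windows. Capitals mark matches to TGCCGC on either strand, the short word that the imprint-protecting zinc finger protein ZFP57 binds when it is methylated. All windows are on build GRCm38.p6 and are printed along the strand of the gene. Peg3 (chr7:6730370-6730669, minus strand) starts 147 bases from the start of Usp29, which runs the other way, so this window covers both starts. Meg3 (chr12:109540746-109541045, plus strand) heads the noncoding transcripts of the Dlk1 cluster. Mest (chr6:30737800-30738099, plus strand) and Igf2 (chr7:142661222-142661521, minus strand) each have further RefSeq starts. The windows shown for these were picked with their matches in view: of the 4 Igf2 windows this is the 1 with a match, and of the 3 Mest windows 2 with almost the same start hold 2 matches each and the other has 0. Meg3 has a further RefSeq start too, whose window (chr12:109545148-109545447) has 0 matches. The Meg3 window shown is thus likewise the one with a match. The word is in 3 of the 4 windows printed, Peg3 having none.
Peg3: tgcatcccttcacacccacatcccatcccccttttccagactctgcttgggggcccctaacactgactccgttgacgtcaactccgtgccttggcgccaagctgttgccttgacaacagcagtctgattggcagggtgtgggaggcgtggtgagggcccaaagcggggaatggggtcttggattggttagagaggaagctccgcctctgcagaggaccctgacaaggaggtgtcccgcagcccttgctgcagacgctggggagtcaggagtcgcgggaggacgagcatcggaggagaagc
Meg3: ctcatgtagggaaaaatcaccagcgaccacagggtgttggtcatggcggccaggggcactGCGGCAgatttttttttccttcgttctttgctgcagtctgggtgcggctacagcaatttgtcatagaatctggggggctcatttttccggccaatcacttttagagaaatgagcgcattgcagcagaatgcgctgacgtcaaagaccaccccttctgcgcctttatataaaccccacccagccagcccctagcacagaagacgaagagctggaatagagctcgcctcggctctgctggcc
Mest: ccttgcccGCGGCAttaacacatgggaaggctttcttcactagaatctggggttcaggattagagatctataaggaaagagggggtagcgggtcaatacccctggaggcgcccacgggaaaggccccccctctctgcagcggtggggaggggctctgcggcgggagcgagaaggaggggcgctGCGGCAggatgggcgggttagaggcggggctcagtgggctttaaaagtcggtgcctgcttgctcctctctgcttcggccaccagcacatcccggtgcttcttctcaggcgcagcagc
Igf2: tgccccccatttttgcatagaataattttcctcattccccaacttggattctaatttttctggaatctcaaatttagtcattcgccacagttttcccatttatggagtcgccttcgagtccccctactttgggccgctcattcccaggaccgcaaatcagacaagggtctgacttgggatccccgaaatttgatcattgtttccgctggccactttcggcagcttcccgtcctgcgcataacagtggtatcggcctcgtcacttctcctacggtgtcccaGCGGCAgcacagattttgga

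The word was found in 11 of the 44 windows (25%), against 3813 of 32851 windows of all genes (11.6%). Among windows with at least 10 CpG it was found in 10 of 25 (40%), against 3208 of 14281 (22.5%). These shares describe letters in the windows and say nothing of binding.

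Barcodes were assigned to types by how many of 8 marker genes each of 15 lists had detected, none of them an imprinted gene on the list. A barcode needed at least 3 markers of a list and at least 1 more than of any other list. Of 11244 and 8328 barcodes kept in replicates 1 and 2, this placed 9050 (80.5%) and 6737 (80.9%), with 26.1% and 25.3% of the placed barcodes ahead by exactly 1 marker. Of these types, 9 held at least 50 barcodes in each library and entered 1 fit. They ranged from 155 and 126 barcodes (allantois-like) to 2286 and 1365 (caudal epiblast-like) or 2185 and 1959 (lateral plate-like), with 1514034 to 45459222 UMIs (unique molecular identifiers, the counted molecules) per type and library. Each type had at least 6 of its own 8 markers at 20 CPM (UMIs scaled to a common total of all UMIs in that type and library) or more. Barcodes were placed by these same markers, so their levels follow from the gate and are no independent check of the types. The allantois-like and lateral plate-like types share markers: the lateral plate list summed to 751 and 661 CPM in allantois-like cells, against 938 and 927 CPM in lateral plate-like cells. The libraries shared 114 barcode sequences.

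The list stood highest in the allantois-like, lateral plate-like and endothelium-like types, and lowest in the neural tube-like, somite-like and caudal epiblast-like types. Of the 34 genes, 9 had their highest mean CPM in allantois-like cells, 8 in lateral plate-like, 5 in endothelium-like and 4 in gut endoderm-like cells, and 13 had their lowest in neural tube-like cells. The top type was the same in both libraries for 19 of 34. Below, a gene is called higher or lower where edgeR's quasi-likelihood test, fitted across 14393 genes with the library as a block, gave a Benjamini-Hochberg adjusted p under 0.05.

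In lateral plate-like cells, against the mean of the other 8 types, 23 of 34 imprinted genes were higher and 1 (Peg13) was lower; of all genes tested 7.64% were higher and 4.81% lower. Without the library block 15 were higher and 0 lower. The median log2 difference of the list was 1.00; over all genes the median was within 0.05 of 0 in each of the 9 comparisons of a type with the others. In allantois-like cells 19 were higher and 1 (Nnat) was lower, beside 5.39% and 3.79% of all genes, with a list median of 1.16. Among the higher calls in allantois-like cells, those of Grb10, Mirg, Peg3, Slc22a18 and Usp29 were lost without the library block. The neighbouring lateral plate-like and allantois-like types stand in each other's reference mean.

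Endothelium-like cells had 17 imprinted genes higher and 7 lower, beside 25.4% and 20.5% of all genes, and gut endoderm-like cells had 13 higher and 8 lower, beside 24.8% and 18.5%. Surface ectoderm-like cells were split, with 10 higher and 11 lower (17.8% and 11.7% of all genes). In these 3 types large shares of all genes were called, and the list's share of lower genes in endothelium-like cells was at that background. Without the library block the lower counts became 2 in endothelium-like and 3 in gut endoderm-like cells, and the surface ectoderm-like counts became 3 higher and 4 lower. The higher calls of Dlk1, Mirg, Peg3, Slc38a4 and Usp29 in endothelium-like cells, and of Asb4 in gut endoderm-like cells, were also lost without it.

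The remaining types were low for the list, against a reference mean that holds the types where the list was high. Neural tube-like cells had 5 higher and 19 lower (15.4% and 14.1% of all genes) with a median of -0.82. Somite-like cells had 3 higher and 19 lower (11.2% and 10.9%) with a median of -0.69. Caudal epiblast-like cells had 3 higher and 17 lower (10.4% and 7.32%) with a median of -0.72, and presomitic mesoderm-like cells had 5 higher and 15 lower (9.37% and 9.03%) with a median of -0.44. Without the library block 12 were lower in neural tube-like, 5 in somite-like, 6 in caudal epiblast-like and 5 in presomitic-like cells. The higher counts without it were 3 in neural tube-like, 1 in caudal epiblast-like and 2 in presomitic-like cells.

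**Figure D1:**
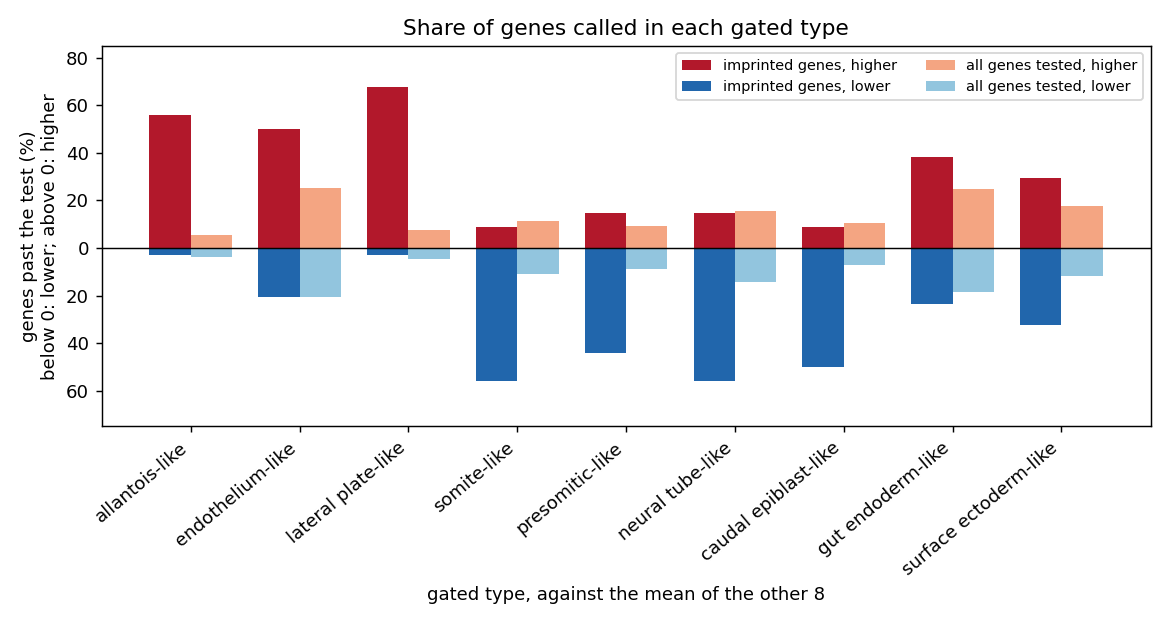
Bars give the share of the 34 imprinted genes (dark) and of all 14393 genes tested (light) that were higher (above 0) or lower (below 0) in each gated type against the mean of the other 8, by edgeR adjusted p. The dark bars reach 67.6% higher in lateral plate-like cells and 55.9% lower in neural tube-like cells.

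Each library alone was counted by a fold of at least 2, with no test. In lateral plate-like cells 17 imprinted genes were that much higher and 1 lower in replicate 1, beside 4.45% and 4.42% of all genes, and 17 and 1 in replicate 2, beside 4.81% and 3.94%. Allantois-like cells had 18 higher and 1 lower in replicate 1 (6.37% and 13.4% of all genes), and 19 and 1 in replicate 2 (8.35% and 10.9%). Neural tube-like cells had 0 higher and 16 lower in replicate 1 (6.45% and 9.43%), and 2 and 15 in replicate 2 (6.44% and 10.6%). In these 3 types the list leaned the same way in both libraries.

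By parental copy, lateral plate-like cells had 9 of 11 maternally expressed genes higher and 0 lower, and 13 of 21 paternally expressed genes higher and 1 lower. Of all genes tested 7.64% were higher and 4.81% lower there. Allantois-like cells had 9 of 11 and 9 of 21 higher, beside 5.39% of all genes. Neural tube-like cells had 0 of 11 maternally expressed genes higher and 10 lower, and 4 of 21 paternally expressed genes higher and 8 lower. Of all genes 15.4% were higher and 14.1% lower there, so the 4 of 21 lies near the share of all genes. Genes of a cluster, such as Meg3, Rian and Mirg, are not independent of each other. The difference between the copies was not tested.

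**Figure D2:**
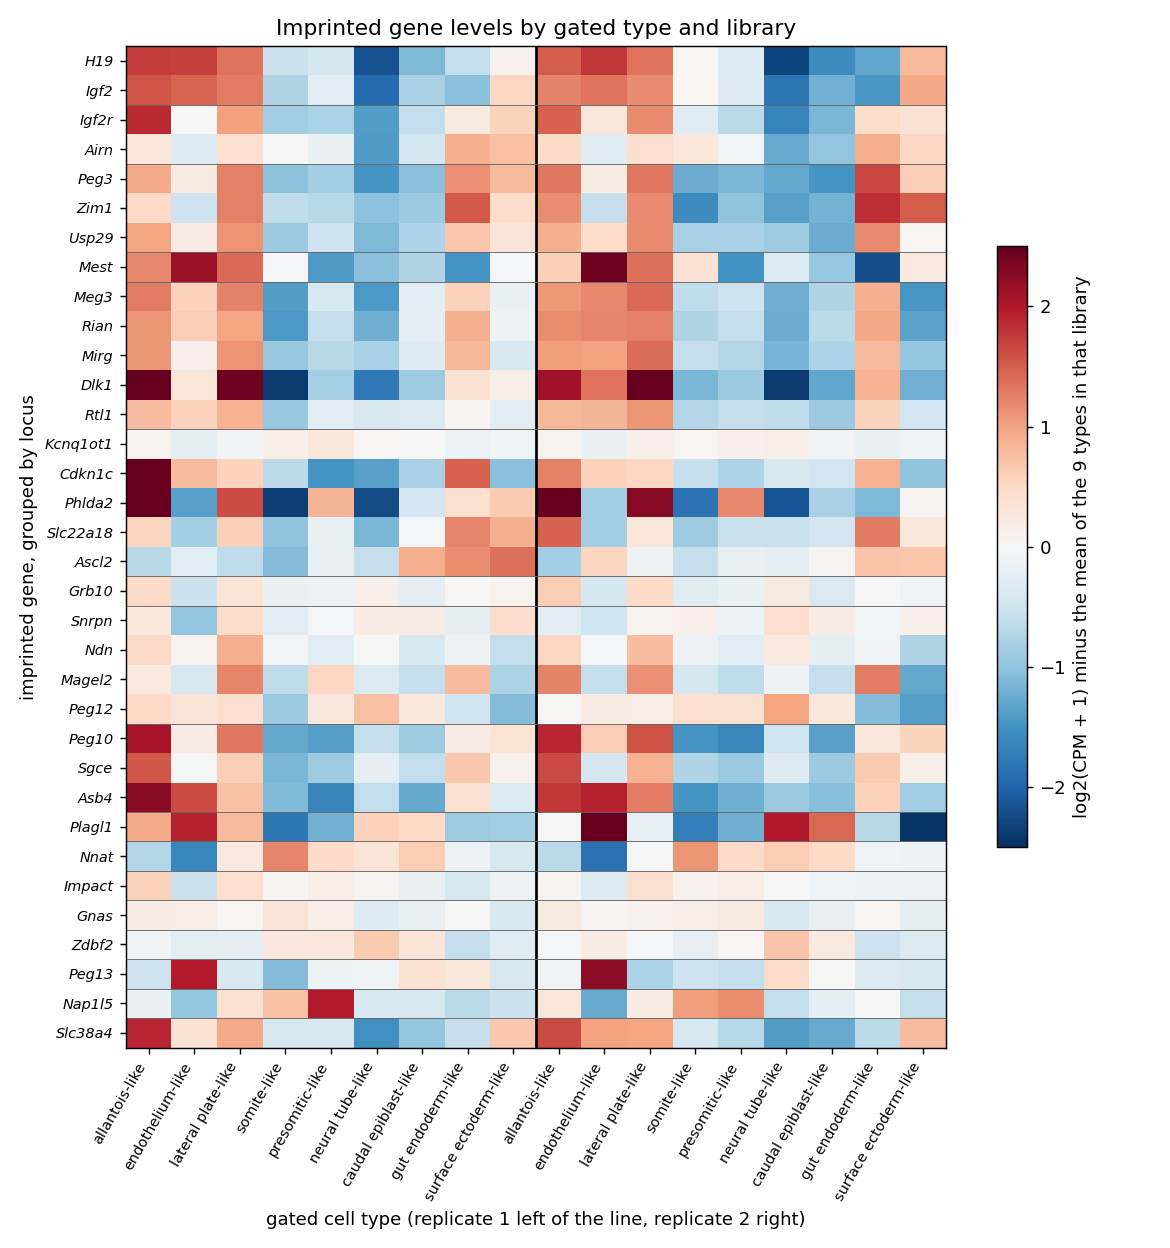
Colour gives log2(CPM + 1) of each imprinted gene (rows, by locus) minus its mean over the 9 gated types of that library, with replicate 1 left of the line and replicate 2 right of it. Red blocks fill the allantois-like, endothelium-like and lateral plate-like columns for H19, Igf2, Meg3, Rian and Dlk1, and Nnat is blue in the allantois-like and endothelium-like columns.

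Igf2 encodes insulin-like growth factor 2, a fetal growth factor, and H19 is a noncoding RNA that shares its enhancers. Their annotated start sites lie 88.7 kb apart on chromosome 7, with H19 at chr7:142575529-142578143 (mm10). In what follows a pair of values is replicate 1, then replicate 2. H19 was at 946 and 1277 CPM in allantois-like cells, 922 and 1554 CPM in endothelium-like cells and 707 and 1149 CPM in lateral plate-like cells. It was at 300 and 787 CPM in surface ectoderm-like cells, 193 and 455 CPM in somite-like, 207 and 360 CPM in presomitic-like, 182 and 183 CPM in gut endoderm-like, 127 and 150 CPM in caudal epiblast-like and 60.8 and 90.2 CPM in neural tube-like cells. The top types did not overlap with any of the low types except that surface ectoderm-like cells of replicate 2 exceeded lateral plate-like cells of replicate 1. The log2 difference from the mean of the others was 2.09 ± 0.15 (SE) in endothelium-like cells (adjusted p = 6.89e-08), 1.77 ± 0.16 in allantois-like cells (8.37e-06) and 1.47 ± 0.16 in lateral plate-like cells (1.94e-05). In neural tube-like cells it was -2.55 ± 0.23 (2.86e-06).

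Igf2 had the same top and bottom types. It was at 529 and 734 CPM in allantois-like, 491 and 789 CPM in endothelium-like and 431 and 703 CPM in lateral plate-like cells, against 85.8 and 112 CPM in gut endoderm-like and 45.5 and 87.2 CPM in neural tube-like cells. The log2 difference was 1.71 ± 0.14 in endothelium-like cells (edgeR adjusted p = 3.05e-07) and -2.14 ± 0.20 in neural tube-like cells (4.45e-06). Endothelium-like and lateral plate-like cells did not differ past the threshold for Igf2 (log2 0.32 ± 0.21, adjusted p = 0.264) or H19 (0.55 ± 0.24, 0.0843). Markers of extraembryonic endoderm, a tissue with high H19 in these data, summed to 13.8 and 6.42 CPM in endothelium-like cells and 17.0 and 2.46 CPM in lateral plate-like cells. The sums were 18.1 and 15.2 CPM in allantois-like cells and 22.0 and 7.86 CPM in neural tube-like cells, with none of the 8 at 20 CPM in any of these types. They were lower in replicate 2 in each of them, and how much such RNA adds to H19 was not tested.

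With every barcode thinned to 5000 UMIs, 91.3% and 97.9% of lateral plate-like barcodes held an H19 UMI, against 15.9% and 24.6% of neural tube-like barcodes. Unthinned, the shares were 98.5% and 99.4% against 39.0% and 49.6%, at median depths of 20235 and 13714 UMIs against 20828 and 15361.5 UMIs. Thinning left out 57 and 42 lateral plate-like and 8 and 7 neural tube-like barcodes. The share of barcodes with a UMI follows the level at this depth and is no share of expressing cells, and the share that free RNA gives was not measured, since no gated type is known to lack H19.

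Igf2r (chr17:12682406-12769664) encodes the receptor that takes up IGF2 for breakdown, and Airn is the paternal noncoding RNA that runs antisense through it and silences it on that copy. Igf2r was at 295 and 410 CPM in allantois-like cells, 163 and 332 CPM in lateral plate-like cells and 29.8 and 45.2 CPM in neural tube-like cells. The log2 difference from the other types was 1.84 ± 0.14 in allantois-like cells (edgeR adjusted p = 1.74e-06) and -1.75 ± 0.18 in neural tube-like cells (9.8e-06). The lateral plate-like difference (1.21 ± 0.13, 2.2e-05) did not pass without the library block (adjusted p = 0.0582). Airn had its top in gut endoderm-like cells, at 13.7 and 19.8 CPM, and its lowest level in neural tube-like cells, at 1.96 and 3.66 CPM. The 2 genes overlap on opposite strands, and the labels do not tell whether strand was used in counting, so their reads may not be fully separate. The same holds for the 19 list members that overlap a gene on the other strand, among them Mest with Copg2, Kcnq1ot1 with Kcnq1, Nnat with Blcap, Nap1l5 with Herc3 and Gnas with Nespas.

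The Dlk1 cluster on chromosome 12 holds Dlk1, a membrane protein that modulates Notch signalling, Rtl1, a retrotransposon-derived gene needed in placental capillaries, and the maternal noncoding RNAs Meg3, Rian and Mirg, hosts of small RNAs. Dlk1 (chr12:109452823-109463336) was at 877 and 349 CPM in allantois-like cells and 758 and 500 CPM in lateral plate-like cells. In the other 7 tested types it was at 206 CPM or below, with 39.4 and 14.4 CPM in neural tube-like cells, so the 2 top types did not overlap with them. The log2 difference was 2.79 ± 0.24 in lateral plate-like cells (edgeR adjusted p = 2.94e-06), 2.64 ± 0.27 in allantois-like cells (3.26e-05) and -2.34 ± 0.40 in neural tube-like cells (0.000656). With barcodes thinned to 5000 UMIs, 73.3% and 67.0% of lateral plate-like barcodes held a Dlk1 UMI, against 8.25% and 3.46% of neural tube-like barcodes; unthinned, 88.1% and 82.0% against 19% and 8.30%.

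The noncoding members moved with Dlk1. Meg3 was at 380 and 480 CPM in lateral plate-like cells, 392 and 385 CPM in allantois-like cells and 241 and 418 CPM in endothelium-like cells, against 58.6 and 76.7 CPM in neural tube-like cells. Its log2 difference was 1.43 ± 0.21 in lateral plate-like cells (edgeR adjusted p = 0.000369) and -1.54 ± 0.29 in neural tube-like cells (0.00119). Rian had its highest mean in allantois-like cells, at 149 and 139 CPM, and its lowest in neural tube-like cells, at 28.9 and 25.5 CPM. In single libraries it was lower still in somite-like cells of replicate 1 (24.6 CPM) and surface ectoderm-like cells of replicate 2 (23.7 CPM). Mirg had its highest mean in lateral plate-like cells, at 18.1 and 15.3 CPM, and its lowest in neural tube-like cells, at 4 and 1.76 CPM, with 3.59 CPM in somite-like cells of replicate 1. Rtl1 was near the detection limit, with 2.51 and 4.17 CPM in lateral plate-like cells, and 0 counts and 0.443 CPM in somite-like cells. Gut endoderm-like cells were higher than the other types for Meg3 (0.78 ± 0.23, 0.0149), Rian (1.02 ± 0.22, 0.00171) and Mirg (1.02 ± 0.23, 0.00231), while Dlk1 there was not called, at 180 and 147 CPM.

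**Figure D3:**
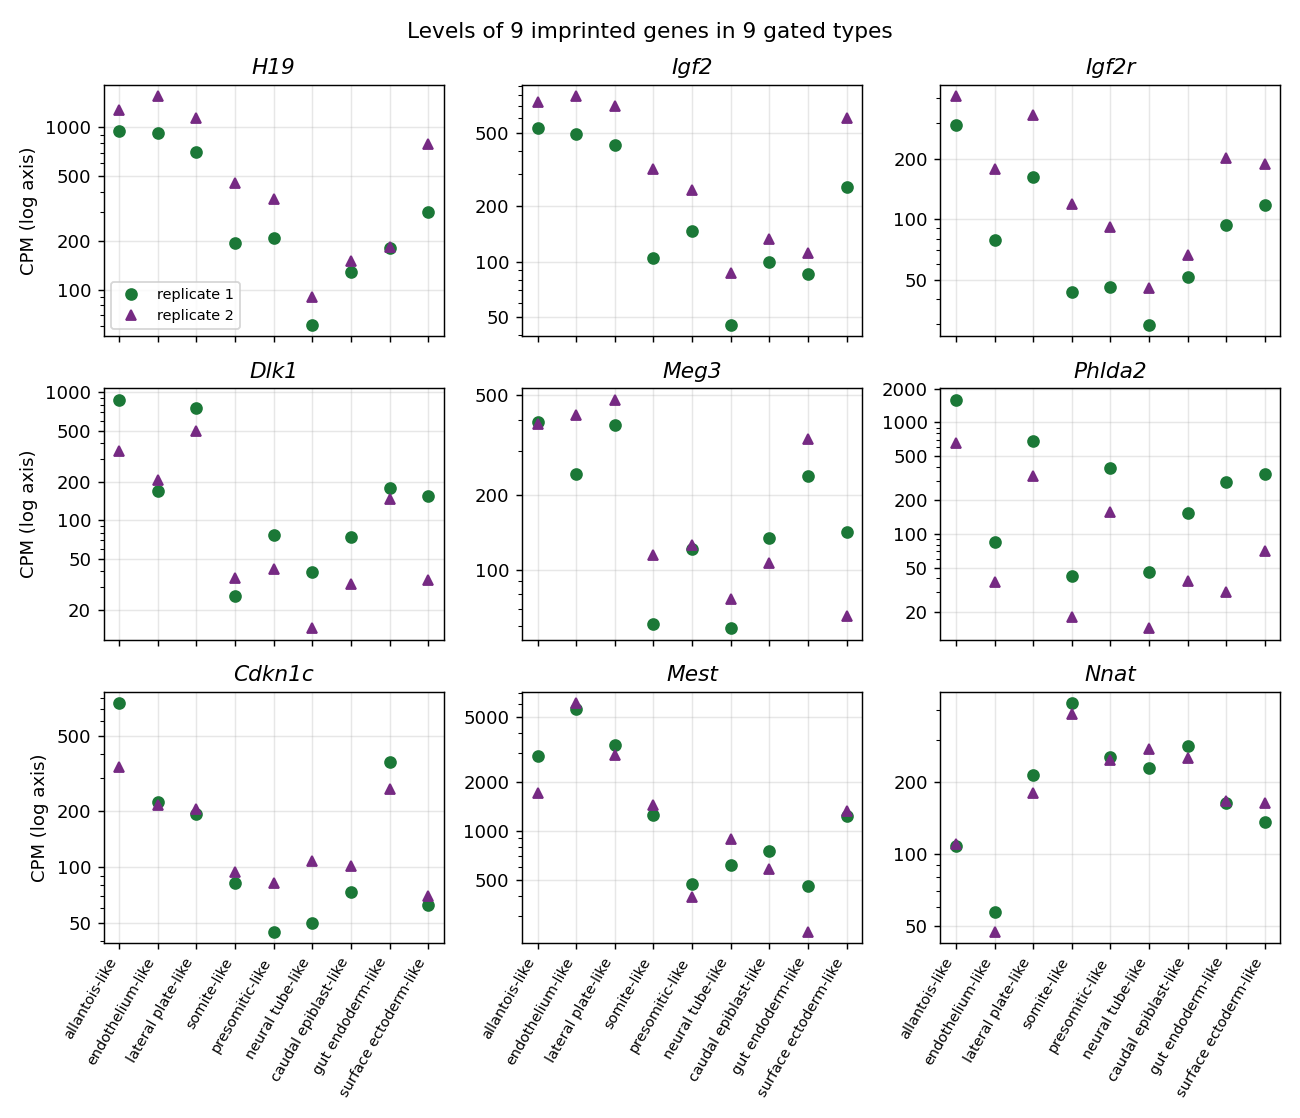
Points give CPM on log axes for 9 imprinted genes in the 9 gated types, replicate 1 as circles and replicate 2 as triangles, with no error bars. Dlk1 spans 877 to 14.4 CPM, Phlda2 lies lower in replicate 2 in every type, and Nnat peaks in somite-like cells at 425 and 383 CPM.

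The Peg3 cluster on chromosome 7 holds Peg3, a zinc finger protein tied to fetal growth and maternal behaviour, Usp29, of a deubiquitinase family, and the zinc finger gene Zim1, which is maternally expressed. Peg3 (chr7:6703892-6730431) was at 740 and 1933 CPM in gut endoderm-like cells, 801 and 1526 CPM in lateral plate-like cells and 642 and 1533 CPM in allantois-like cells. It was at 119 and 252 CPM in neural tube-like cells, and no presomitic-like, somite-like or caudal epiblast-like value exceeded 276 CPM. Its log2 difference was 1.59 ± 0.11 in gut endoderm-like (edgeR adjusted p = 1.1e-07), 1.42 ± 0.11 in lateral plate-like (1.21e-06) and -1.55 ± 0.15 in neural tube-like cells (5.2e-06). Usp29 was at 14.5 and 25.8 CPM in lateral plate-like and 3.14 and 4.01 CPM in caudal epiblast-like cells. Zim1 was at 8.93 and 14.4 CPM in gut endoderm-like and 0.679 and 0.677 CPM in neural tube-like cells.

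Mest (chr6:30723547-30748465), a membrane protein of the hydrolase fold family and a widely used marker of mesoderm, was at 5594 and 6087 CPM in endothelium-like cells and 3363 and 2933 CPM in lateral plate-like cells, against 457 and 241 CPM in gut endoderm-like cells. The endothelium-like difference from the other types was 2.69 ± 0.15 on the log2 scale (edgeR adjusted p = 5.35e-09) and the gut endoderm-like one -2.02 ± 0.23 (1.02e-05). Within mesoderm it separated types: presomitic-like cells held 473 and 394 CPM, and somite-like cells 1250 and 1437 CPM.

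Peg10 and Sgce start 99 bases apart on opposite strands of chromosome 6, and Asb4 lies on the same cluster. Peg10 (chr6:4747306-4760517), a retrotransposon-derived gene required for the placenta, was at 981 and 873 CPM in allantois-like cells, 588 and 702 CPM in lateral plate-like cells and 89.8 and 74.9 CPM in presomitic-like cells. The log2 difference was 2.18 ± 0.10 in allantois-like cells (edgeR adjusted p = 1.33e-08) and -1.71 ± 0.13 in presomitic-like cells (1.17e-06). Sgce, a sarcoglycan of the dystrophin-linked membrane complex, was at 86.0 and 85.2 CPM in allantois-like and 12.5 and 15.3 CPM in somite-like cells. Asb4, a ubiquitin ligase adaptor known from vascular cells, was at 46.5 and 21.1 CPM in allantois-like cells and 29.8 and 23.8 CPM in endothelium-like cells, against 2.14 and 1.81 CPM in presomitic-like cells. The endothelium-like difference of Asb4 was 2.31 ± 0.19 (2.28e-07). Of 8 trophoblast markers, 1 was at 20 CPM or more in allantois-like cells of each library and 7 were at 0, and no barcode was placed as trophoblast-like. The list summed to 94.1 and 33.7 CPM in allantois-like cells, its highest sum in each library. It summed to 43.2 and 32.3 CPM in endothelium-like and 1.66 and 0.677 CPM in neural tube-like cells. Whether trophoblast RNA adds to these levels was not tested.

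The Kcnq1ot1 domain of chromosome 7 behaved less uniformly. Kcnq1ot1, the paternal noncoding RNA that silences the domain, was nearly even, from 115 and 181 CPM in presomitic-like cells to 80.3 and 145 CPM in endothelium-like cells. Phlda2 (chr7:143501545-143503150), which limits placental growth, was at 1597 and 659 CPM in allantois-like, 680 and 331 CPM in lateral plate-like and 393 and 157 CPM in presomitic-like cells, against 42.1 and 18.2 CPM in somite-like and 45.7 and 14.4 CPM in neural tube-like cells. The log2 difference was 3.36 ± 0.22 in allantois-like cells (edgeR adjusted p = 3.5e-07), the largest among the 34 genes in that type. The lateral plate-like difference (2.18 ± 0.22, 1.07e-05) and the neural tube-like one (-2.56 ± 0.35, 0.000103) did not pass without the library block (0.13 and 0.112). Phlda2 was lower in replicate 2 than in replicate 1 in 9 of 9 types, at a median ratio of 0.398.

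Cdkn1c (chr7:143458339-143461050), the inhibitor p57 that takes cells out of the cycle, was at 750 and 343 CPM in allantois-like and 362 and 260 CPM in gut endoderm-like cells, against 45.2 and 82.5 CPM in presomitic-like cells. Its log2 difference was 2.22 ± 0.25 in allantois-like (edgeR adjusted p = 6.67e-05) and 1.33 ± 0.25 in gut endoderm-like cells (0.000716); the lateral plate-like one was not called (0.55 ± 0.26, 0.212). Slc22a18, a membrane transporter, was at 6.08 and 4.52 CPM in gut endoderm-like and 0.513 and 0.222 CPM in somite-like cells. Ascl2, a transcription factor of trophoblast and a Wnt target, was at 6.45 and 1.94 CPM in surface ectoderm-like and 0.342 and 0.222 CPM in somite-like cells, with 0 counts in allantois-like cells of replicate 2.

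Nnat, Zdbf2, Peg12 and Nap1l5 had their highest mean CPM in somite-like, neural tube-like or presomitic-like cells. Of the list, 14.7% were higher in neural tube-like and 8.82% in somite-like cells, beside 15.4% and 11.2% of all genes. In these types the share was thus no larger than that of all genes. In presomitic-like cells it was 14.7%, beside 9.37% of all genes. Nnat, a small membrane proteolipid of the endoplasmic reticulum first found in newborn brain, was at 425 and 383 CPM in somite-like cells, 253 and 247 CPM in presomitic-like cells and 57.6 and 47.6 CPM in endothelium-like cells. Its log2 difference was 1.35 ± 0.08 in somite-like (edgeR adjusted p = 5.84e-08) and -1.83 ± 0.11 in endothelium-like cells (1.05e-08). Zdbf2, a zinc finger gene, was at 35.7 and 55.8 CPM in neural tube-like and 14.4 and 23.2 CPM in gut endoderm-like cells, with a neural tube-like difference of 0.80 ± 0.11 (0.000101). Peg12, which belongs to the GSK3-binding FRAT family, was at 14.7 and 34.3 CPM in neural tube-like and 3.42 and 5.81 CPM in surface ectoderm-like cells; its neural tube-like difference (1.00 ± 0.21, 0.00238) did not pass without the library block (0.125). Nap1l5, a nucleosome assembly family gene, was at 10.4 and 5.62 CPM in presomitic-like cells and 0.465 and 0.238 CPM in endothelium-like cells, with a presomitic-like difference of 2.37 ± 0.22 (6.45e-06).

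Plagl1, a zinc finger factor that regulates other imprinted genes, had a pattern of its own. It was at 60.02 and 188 CPM in endothelium-like, 22.8 and 107 CPM in neural tube-like and 21.6 and 72.2 CPM in caudal epiblast-like cells, against 3.59 and 7.32 CPM in somite-like cells. Allantois-like and lateral plate-like cells held 30 and 26.4 CPM and 26.9 and 22.6 CPM, above the neural tube-like and caudal epiblast-like values in replicate 1 and below them in replicate 2. The log2 difference was 2.84 ± 0.34 in endothelium-like (edgeR adjusted p = 1.06e-05) and 1.59 ± 0.36 in neural tube-like cells (0.00457). Peg13, a noncoding RNA, was at 28.6 and 37.1 CPM in endothelium-like cells and at 10.02 CPM or below in every other tested type, with 2.56 and 4.66 CPM in somite-like cells. Its endothelium-like difference was 2.66 ± 0.18 (4.37e-08).

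Of the Prader-Willi region genes on chromosome 7, Ndn and Magel2 encode MAGE family proteins of neurons and Snrpn a splicing protein. Ndn was at 242 and 267 CPM in lateral plate-like and 83.3 and 91.4 CPM in surface ectoderm-like cells, a lateral plate-like difference of 0.92 ± 0.07 (edgeR adjusted p = 6.37e-07). Magel2 was at 19.2 and 17.3 CPM in lateral plate-like and 4.01 and 2.42 CPM in surface ectoderm-like cells. Snrpn was at 87.7 and 44.6 CPM in surface ectoderm-like and 32.6 and 28.3 CPM in endothelium-like cells, and was called in no type except endothelium-like (-0.76 ± 0.16, 0.00182; without the library block 0.166).

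Slc38a4, an amino acid transporter, was at 306 and 165 CPM in allantois-like and 27.5 and 19 CPM in neural tube-like cells, with an allantois-like difference of 1.97 ± 0.12 (edgeR adjusted p = 1.8e-07). The last 3 members had smaller ranges. Grb10, which dampens insulin and IGF receptor signalling, was at 648 and 1018 CPM in allantois-like and 320 and 480 CPM in endothelium-like cells. Gnas, the stimulatory G protein subunit, was at 1094 and 1008 CPM in somite-like and 702 and 703 CPM in neural tube-like cells. Impact, a regulator of translation under stress, was at 42.3 and 36.7 CPM in lateral plate-like and 21.3 and 21.9 CPM in endothelium-like cells.

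Neighbouring types were also compared directly. Between lateral plate-like and presomitic mesoderm-like cells, 22 imprinted genes were higher in lateral plate-like cells and 1 (Nap1l5) was lower, beside 8.35% and 6.16% of all genes, and the list median was 1.52 on the log2 scale. The differences reached 3.43 ± 0.44 for Dlk1 (edgeR adjusted p = 0.000118), 2.95 ± 0.16 for Peg10 (1.31e-07), 2.89 ± 0.29 for Asb4 (1.51e-05) and 2.85 ± 0.27 for Mest (9.62e-06). Igf2 (1.52 ± 0.22, 0.0003) and Igf2r (1.83 ± 0.20, 2.87e-05) were called too, but not without the library block (0.117 and 0.0708). The higher calls of Grb10 (0.375), Magel2 (0.113), Plagl1 (0.336), Slc22a18 (0.465) and Slc38a4 (0.1) were also lost without it. Phlda2 was not called (0.95 ± 0.34, 0.081).

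**Figure D4:**
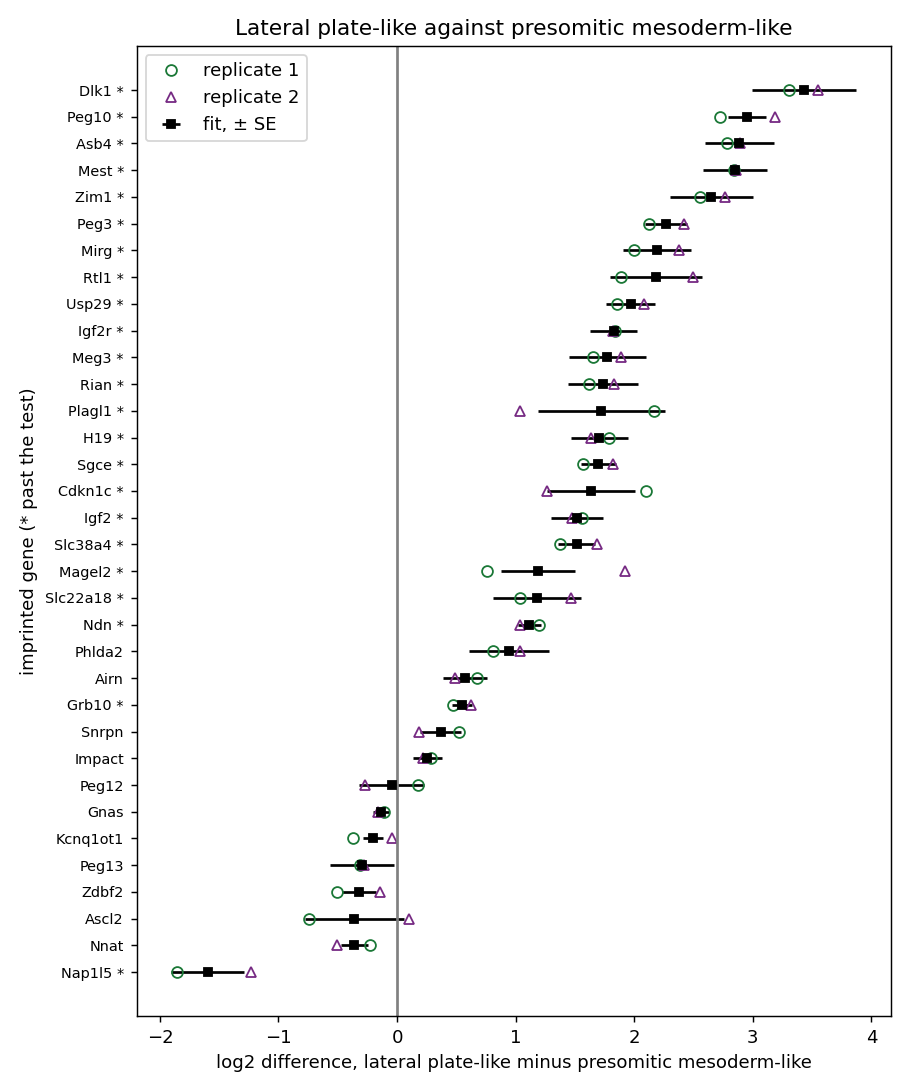
Squares give the fitted log2 difference ± SE of lateral plate-like minus presomitic mesoderm-like cells for the 34 imprinted genes, with each library alone as an open symbol and stars at genes past the test. Dlk1 lies highest at 3.43, and Nap1l5 is the starred gene below 0, at -1.60.

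Allantois-like cells differed from lateral plate-like cells in 1 gene each way, Sgce (0.85 ± 0.15, edgeR adjusted p = 0.0332) and Nnat (-0.88 ± 0.13, 0.00993), beside 0.243% and 0.160% of all genes. Without the library block 0 were called in either direction, with 9 of 34 at an unadjusted p under 0.05 in the fit with it. Cdkn1c (1.48 ± 0.37, 0.115) and Phlda2 (1.05 ± 0.34, 0.235) did not pass. Endothelium-like cells had 5 genes higher and 17 lower than lateral plate-like cells (19.7% and 16.6% of all genes); without the library block 3 and 8. The higher genes were Peg13 (3.05 ± 0.27, 1.37e-06), Plagl1 (2.16 ± 0.51, 0.0043), Mest, Asb4 and Gnas, and among the lower were Phlda2 (-3.01 ± 0.39, 3.9e-05; without the block 0.0959) and Nnat (-1.74 ± 0.13, 2.33e-07).

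Somite-like cells were higher than presomitic-like cells for Mest (1.68 ± 0.26, edgeR adjusted p = 0.00113) and Nnat (0.73 ± 0.12, 0.00141) and lower for Phlda2 (-3.20 ± 0.42, 0.000321; without the library block 0.241), beside 4.23% and 3.96% of all genes. Presomitic-like cells had 6 genes higher and 1 (Plagl1) lower than caudal epiblast-like cells (4.40% and 6.59% of all genes), led by Nap1l5 (2.46 ± 0.33, 0.000293) and Phlda2 (1.67 ± 0.35, 0.00624; without the library block 0.728). Neural tube-like cells had 4 higher and 5 lower than caudal epiblast-like cells (4.29% and 5.89%), the lower ones being H19, Igf2, Airn, Phlda2 and Ascl2. Without the library block 2 and 0 were called in the presomitic-like and 0 and 0 in the neural tube-like comparison. Gut endoderm-like cells, set against surface ectoderm-like cells, had 11 higher and 4 lower (12.1% and 10.2%; without the block 6 and 2), with Cdkn1c at 2.28 ± 0.39 (0.000915) and Igf2 at -1.95 ± 0.23 (5.32e-05).

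A further 4 types had at least 50 barcodes in 1 library only, so their values have no replicate and no test, and their intervals cover counting error only. In replicate 1, 247 extraembryonic endoderm-like barcodes were set against 629 gut endoderm-like barcodes. H19 was at 1496 CPM in extraembryonic endoderm-like and 182 CPM in gut endoderm-like cells, a ratio of 8.24 (95% counting interval 7.88 to 8.62). Igf2 had a ratio of 2.93, Peg10 of 3 and Dlk1 of 2.70. Nnat (0.226, interval 0.196 to 0.259) and Magel2 (0.138, 0.0701 to 0.247) were at least 4-fold lower. By that size, among genes with at least 10 CPM in either type, 1 imprinted gene was higher and 2 lower, beside 3.82% and 2.93% of all such genes. A further 24 imprinted genes were under 4-fold and 7 were under 10 CPM in both types. The 1 higher gene is thus near the share of all such genes.

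**Figure D5:**
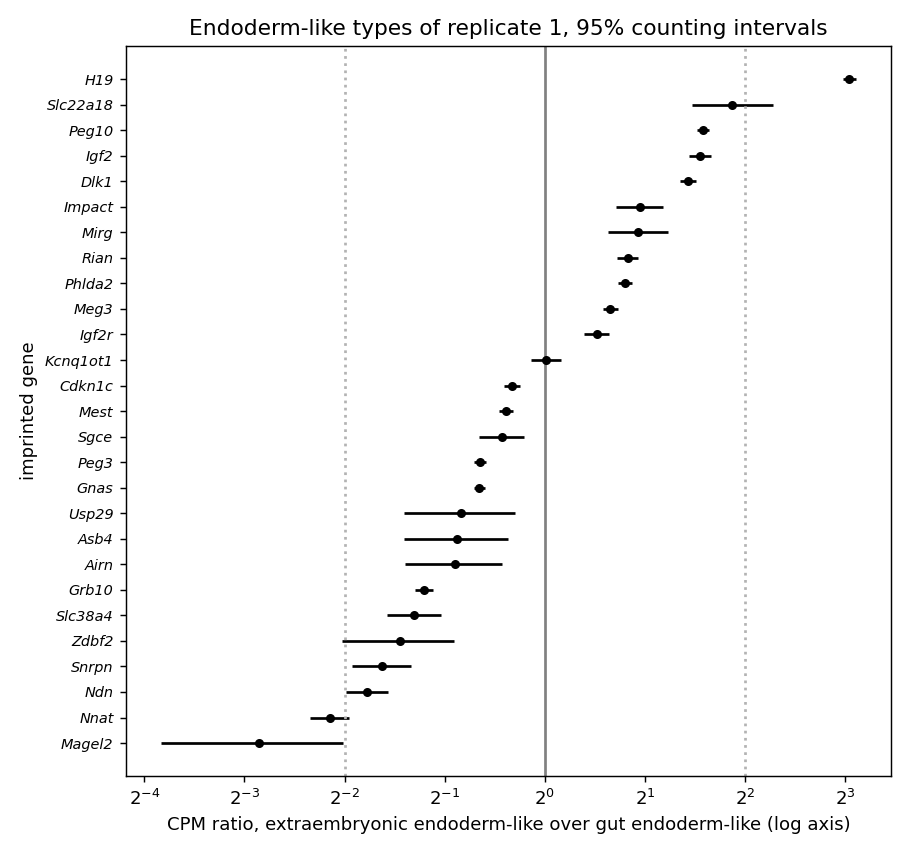
Points give the CPM ratio of extraembryonic endoderm-like over gut endoderm-like cells in replicate 1 on a log axis, with 95% counting intervals, for the imprinted genes with at least 10 CPM in either type. H19 stands past the upper 4-fold line at 8.24, and Nnat and Magel2 past the lower one.

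In replicate 2, 154 primitive erythroid blood-like barcodes had 18 imprinted genes at least 4-fold lower than endothelium-like cells and 0 higher, beside 15.8% lower and 2.48% higher among all genes with at least 10 CPM in either type. A further 9 imprinted genes were under 4-fold and 7 were under 10 CPM in both types. Haemoglobin took 26.4% of their UMIs, against 0.00806% in endothelium-like cells, which lowers the CPM of every other gene. Mest was at a ratio of 0.0295 (0.0272 to 0.0320) and Igf2 at 0.0983 (0.0864 to 0.111). The 101 intermediate mesoderm-like barcodes of replicate 2 had Dlk1 (0.141, 0.116 to 0.169), Phlda2 (0.131, 0.102 to 0.166), Plagl1 and Usp29 at least 4-fold below lateral plate-like cells and 0 above, beside 1.73% of all genes below and 1.13% above. The 63 notochord-like barcodes of replicate 1 had Cdkn1c (7.01, 6.34 to 7.74), Asb4 (12.5, 8.31 to 18.3) and Slc22a18 (5.28, 2.33 to 10.5) at least 4-fold above caudal epiblast-like cells and 0 below, beside 5.90% of all genes above and 1.57% below. Under 4-fold were 24 imprinted genes in the intermediate mesoderm-like and 23 in the notochord-like comparison, with 6 and 8 under 10 CPM.

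In several clusters, genes had similar profiles over the 9 types. Correlations of log2(CPM + 1) over the types are given as a description in replicate 1, then replicate 2; the points share a library and depth. They were 0.978 and 0.989 for H19 with Igf2, 0.978 and 0.974 for Peg3 with Usp29, 0.982 and 0.997 for Meg3 with Rian, 0.956 and 0.954 for Meg3 with Dlk1, and 0.952 and 0.904 for Peg10 with Sgce. H19 and Igf2, and likewise Meg3 and Dlk1, are expressed from opposite copies, while Peg3 and Usp29 are expressed from the same copy. The Igf2r and Airn pair stood at 0.686 and 0.815. Kcnq1ot1 with Cdkn1c stood at -0.380 and -0.136, and Snrpn with Ndn at 0.0951 and -0.0611. The median over 34 pairs of the same locus was 0.816 and 0.797, and over 527 other pairs 0.319 and 0.276. Many of the same-locus pairs come from the Dlk1 cluster, all at 0.886 or above, which raises that median. Pairs of the Kcnq1ot1 domain ranged from -0.421 to 0.785 in replicate 1 and from -0.786 to 0.649 in replicate 2.

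Some imprinted genes differed between the libraries in every type. Replicate 2 was above replicate 1 in 9 of 9 types for 10 genes, among them Igf2r (median ratio 1.99), Peg3 (1.79), Usp29 (1.78), Kcnq1ot1 (1.77), Igf2 (1.63) and H19 (1.62). It was below in 9 of 9 types for 3 genes, Phlda2 (0.398), Snrpn (0.621) and Asb4 (0.679). Of all 14393 genes tested, 15.6% were above and 8.22% below in every type. The libraries differ in median depth (13685.5 UMIs in replicate 2 and 17872.5 in replicate 1), and the part of depth or embryo stage in these shifts was not tested.

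Other genes near or acting on these loci were counted from lists. Of 39 other imprinted or neighbouring genes 31 were tested. In lateral plate-like cells 5 (16.1%) were higher and 4 (12.9%) lower than the mean of the others, beside 7.64% and 4.81% of all genes, with a median of 0.05, and Dcn (2.63 ± 0.31, edgeR adjusted p = 5.1e-05) and Klf14 (2.58 ± 0.28, 2.79e-05) led. In endothelium-like cells 16 (51.6%) were higher and 5 (16.1%) lower, beside 25.4% and 20.5% of all genes, led by the transporter gene Slc22a3 (4.57 ± 0.34, 9.99e-08) and by Tfpi2 (4.19 ± 0.31, 3.84e-07). In neural tube-like cells 8 (25.8%) were lower, beside 14.1% of all genes, 4 of them being Slc22a3, Pon3, Pon2 and Sfmbt2.

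Of 20 genes that set or keep imprints 18 were tested. In lateral plate-like cells 1 (5.56%) was higher (Smchd1, 0.21 ± 0.07, edgeR adjusted p = 0.0492) and 1 (5.56%) lower (Dnmt3b, a de novo DNA methyltransferase, -0.60 ± 0.07, 5.64e-05). Zfp57, which keeps methylation at imprinted control regions, was at 38.3 and 36.9 CPM in endothelium-like cells (1.75 ± 0.13, 1.03e-07) and 7.47 and 7.45 CPM in neural tube-like cells (-0.98 ± 0.17, 0.000604). Of this list 5 (27.8%) were higher and 7 (38.9%) lower in endothelium-like cells, beside 25.4% and 20.5% of all genes. In neural tube-like cells 5 (27.8%) were higher and 3 (16.7%) lower, beside 15.4% and 14.1%. Of 19 genes of the insulin-like growth factor axis 18 were tested. Lateral plate-like cells had 2 (11.1%) higher and 2 (11.1%) lower, beside the same 7.64% and 4.81%, with Igfbp5 at -1.52 ± 0.47 (0.0494) and Irs1 at 0.71 ± 0.20 (0.0347). Igf1, the related growth factor, was at 84.1 and 65.4 CPM in endothelium-like cells (6.22 ± 0.17, 3.36e-12), against 0.302 and 0.542 CPM in neural tube-like cells. Of the axis genes 5 (27.8%) were higher and 5 (27.8%) lower in endothelium-like cells, beside the same 25.4% and 20.5%.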

How the data were processed

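The deposited values are raw counts of unique molecular identifiers for each gene in each barcode. Per the submitters' processing notes, Cell Ranger 6.1.1 and the mm10 build were used. For the annotation, the calling of cells and the handling of strand and introns the sources used here give nothing. Barcodes with at least 2000 UMIs and 0.3 to 10% mitochondrial UMIs were kept, and gated by markers as described above (scanpy 1.11.5). Scrublet marked 921 (8.19%) and 411 (4.94%) kept barcodes; these stayed in and were removed as an alternative. Counts were summed per type and library, where types had at least 50 barcodes in both libraries, and CPM is the summed count scaled to a common total. edgeR 4.0.16 (R 4.3.3; TMM, low-count filter, prior count 2, library as a block) tested each type against the mean of the others and planned pairs, with Benjamini-Hochberg adjustment over all 14393 genes. The code was tested on simulated counts. The types of a library come from 1 pool: the correlation of their deviations between libraries was 0.155 to 0.688 (median 0.380) over 36 pairs of types. DESeq2 1.42.0 and the alternatives in the closing section were run beside it. Poisson intervals at 95% and exact binomial ones cover counting error only. Every listed gene is given at its highest and lowest type, with fuller values for those reaching a mean of 20 CPM. From the other lists at most 4 examples per list and comparison are named, by size of difference. For the neighbour list this is more than the planned 4 per list. The members, the lists and the tests were chosen with earlier results of these data known. One gene of the neighbour list was not among the features.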

Additional observations from a re-analysis of the deposited data

How the results depend on the processing

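Of 277 calls of a gene in a comparison, 276 stayed past the threshold with DESeq2 size factors, 275 without the count filter, 270 with at least 5000 UMIs, 267 with the DESeq2 Wald test, 142 without a replicate block, and 7, 19 and 25 were lost without Scrublet doublets, without the mitochondrial minimum and under a stricter gate (4 markers, ahead by 2). Under that gate allantois-like cells fell under 50 barcodes, so their comparisons gave no value. They also left the reference mean of every other type. Without the mitochondrial minimum, intermediate mesoderm-like cells reached 50 and 158 barcodes and entered the fit and every reference mean. Under both settings, comparisons with the mean of the others therefore have another reference than the reported ones. Each library alone gives a value and no test, and none of the 277 changed direction, but 81 without replicate 1 and 64 without replicate 2 moved by more than the combined error of both differences, taken as equal. Kcnq1ot1 in presomitic-like cells turned to -0.026 (edgeR adjusted p = 0.852) without the mitochondrial minimum; the cause was not tested. Higher counts without the replicate block (library pairing) were 1 caudal epiblast-like, 3 neural tube-like, 2 presomitic-like, 15 lateral plate-like and 3 surface ectoderm-like; lower counts were 6, 12, 5, 0 and 4 there, 5 somite-like, 3 gut endoderm-like and 2 endothelium-like. In pairs without it, higher and lower counts were 0 and 0 for allantois-like against lateral plate-like, 2 and 0 for presomitic-like and 0 and 0 for neural tube-like against caudal epiblast-like, 3 and 8 for endothelium-like against lateral plate-like, 6 and 2 for gut endoderm-like against surface ectoderm-like, with 0 lower for somite-like against presomitic-like. Other counts that moved by over 1.5 times were these. Caudal epiblast-like higher became 1 with the DESeq2 Wald test, presomitic-like lower 9 under the stricter gate, and lateral plate-like lower 0 without the mitochondrial minimum. Allantois-like against lateral plate-like, higher, became 2 with DESeq2 size factors, the Wald test, at least 5000 UMIs or doublets removed and 5 without the count filter, and lower 2 without it. Lateral plate-like against presomitic-like, lower, became 2 with size factors, no filter, the Wald test, no mitochondrial minimum or doublets removed. Without the count filter presomitic-like lower than caudal epiblast-like became 3 and neural tube-like lower 8 (2 under the stricter gate). Somite-like lower than presomitic-like became 2 under the stricter gate, and endothelium-like higher than lateral plate-like 3 without the mitochondrial minimum. Extraembryonic endoderm-like at least 4-fold below gut endoderm-like became 1 without that minimum and 4 with doublets removed. Members under 10 CPM, such as Rtl1, Ascl2 and Slc22a18, rest on few counts, and differences there are limited by depth.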
